A study of Mus musculus with 8 samples.

Results

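The genes of the tricarboxylic acid (TCA) cycle and of the oxidation of ketone bodies and branched-chain amino acids (BCAAs) were followed in the LV after angII infusion. The 36 genes were a fixed list of symbols looked up in a count table of 46040 genes. The lookup used no measured value, but the list was chosen with earlier results of these data known. They comprised 13 enzymes of the TCA cycle, 7 enzymes of anaplerosis and the malate-aspartate shuttle, 13 enzymes and regulators of BCAA catabolism and 3 enzymes of ketone body use. Each of the 36 was abundant enough to pass the minimum count and was tested.

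RNA was measured in the LVs of 8 C57BL/6 mice, males of 5 to 7 months per the study's methods, which received angII at 0.1 mg/kg/h and were alive on day 14. Of these, 4 libraries are tagged wildtype, the littermate controls, and 4 VEGFR-1 TK-/-, a whole-body allele of *Flt1* that lacks the tyrosine kinase domain. For every library, the genotype tag and the library name give one genotype and the sample title gives the other, so the groups are called control-tagged and TK-/- tagged, and the sign of every difference reverses if the titles are right. All mice received angII, so that the comparison addresses the VEGFR-1 signal in the pressure-overloaded LV and not the response to angII.

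The TCA cycle oxidizes acetyl-CoA in the mitochondrial matrix and hands the electrons to the respiratory chain, and cardiomyocytes hold this machinery at high levels. Ketone bodies enter the cycle as acetyl-CoA after activation by *Oxct1*. Leucine, isoleucine and valine are first transaminated and then committed to oxidation by the branched-chain ketoacid dehydrogenase (BCKDH) complex, which a kinase, *Bckdk*, switches off and a phosphatase, *Ppm1k*, switches on. Their catabolism is known to be suppressed in failing hearts.

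Library totals lay between 11449137 and 16239670 counts on genes, and replicates differed by more than sampling noise, with a chi-square of their counts over its degrees of freedom from 7.24 to 54.0. The p-values set the difference between the groups against the spread between libraries of the same group. *Flt1*, the targeted gene, lay between 56.9 and 84.3 normalized CPM (counts scaled to the library size after TMM normalization) in the control-tagged and between 144 and 169.6 in the TK-/- tagged libraries, with a log2 fold change of 1.19 (SE 0.12, false discovery rate FDR = 0.00808). Its count covers the whole gene, so that it does not decide between the labels. The library names refer to cardiomyocytes and the source label to LV tissue. All 7 cardiomyocyte markers were abundant, and fibroblast, endothelial and leukocyte markers were present in every library. Of the 7 adipocyte markers, 2 (*Plin1* and *Lep*) were at 0 in every library and 1 (*Cidea*, at 461 to 813 counts) passed the filter on low counts. Of the 6 skeletal muscle markers, 2 (*Myh2* and *Myh4*) were at 0 and 2 (*Tnnt3*, at 6 to 21 counts, and *Mylpf*, at 11 to 25) passed it.

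None of the 36 transcripts of oxidative enzymes passed the test for a change between the genotypes. A gene was called at an FDR (the Benjamini-Hochberg adjusted p of edgeR's quasi-likelihood test over 13542 genes) under 0.1 and a change of at least 1.5-fold. By this rule 0 of 36 members were called, where 0.00738% of all genes were called. The likelihood ratio test and DESeq2 also called 0 members, where they called 0.391% and 0.236% of all genes. The lowest FDR of a member was 0.475. At an unadjusted p under 0.05 there were 2 members, *Bckdhb* and *Dbt*, which is 5.56% of the members beside 8.96% of all genes. Both were higher in the TK-/- tagged libraries, and 3.32% of all genes were higher there with such a p. In 0 members were the groups free of overlap, beside 4.98% of all genes in either direction and 2.46% with the TK-/- tagged libraries higher.

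The direction of the differences was uneven, and the excess of members above 0 was absent without 1 library. The log2 fold change was above 0 in 28 of 36 members (77.8%), beside 49.7% of all genes, and its median was 0.11, beside -0.00 over all genes. It ranged from -0.16 for *Me2* to 0.32 for *Dbt*. Leaving out control-tagged replicate 2 left 18 of 36 members above 0, beside 50.2% of all genes, and a median of 0.01. Without TK-/- tagged replicate 2 it was above 0 in 27 members, and with both replicates numbered 2 left out in 14, with a median of -0.04. Without control-tagged replicate 3, 34 members lay above 0, and without TK-/- tagged replicate 3, 25 did.

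**Figure D1:**
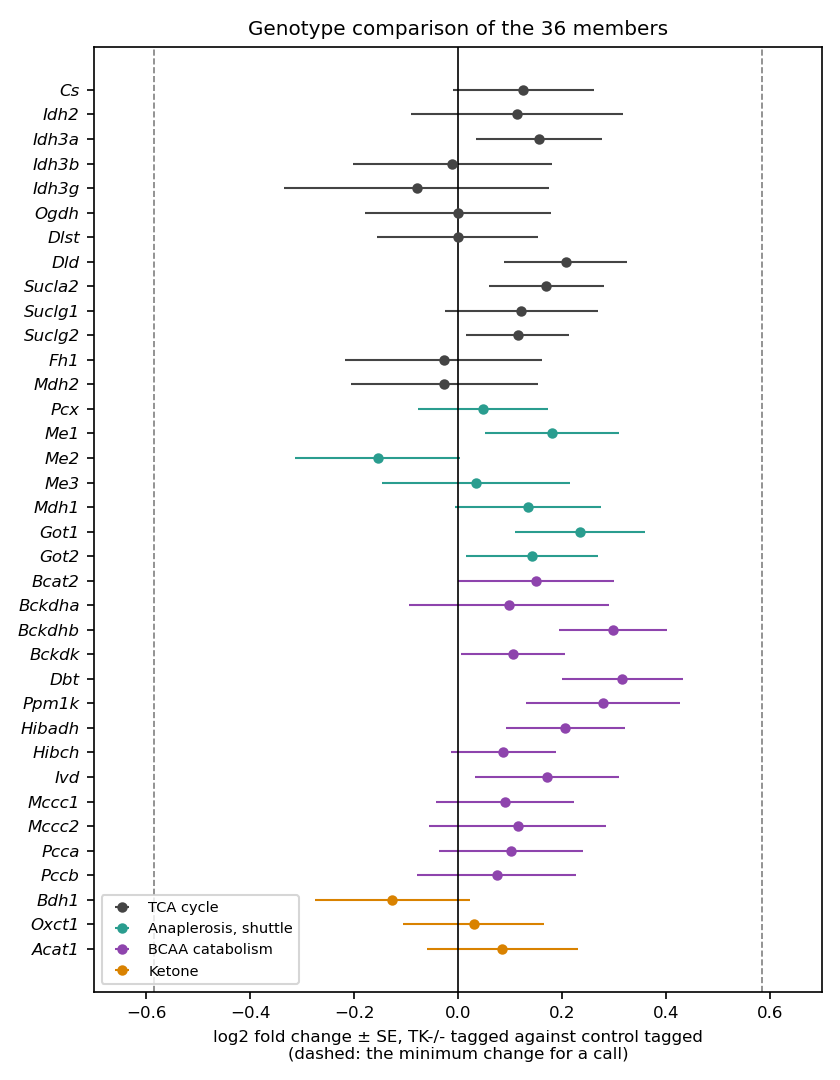
Log2 fold change of the 36 members (x axis, TK-/- tagged against control-tagged libraries) with its SE as the bar, coloured by functional group, with dashed lines at the change of 1.5-fold needed for a call. All members lie between the dashed lines, from -0.16 (*Me2*) to 0.32 (*Dbt*), and all 13 of BCAA catabolism lie above 0.

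The libraries differed more than the genotypes did. Control-tagged replicate 2 had the lowest value of all 8 libraries in 28 of 36 members, and its median deviation from the mean of the libraries was -0.37 on the log2 scale. The highest value came from TK-/- tagged replicate 2 in 16 members, from control-tagged replicate 3 in 12 and from TK-/- tagged replicate 3 in 6. TK-/- tagged replicates 2 and 3 lay above the mean in 32 and 34 members, while TK-/- tagged replicates 1 and 4 lay above it in 5 and 9. Averaged over the 4 libraries of a group, the median deviation was -0.07 ± 0.21 in the control-tagged and 0.06 ± 0.15 in the TK-/- tagged libraries (SD, n = 4 each), a difference smaller than either SD.

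Control-tagged replicate 3 departed unevenly, and its members did not move as a block. Its deviations ran from -0.38 for *Me1* to 0.81 for *Idh3g*. The enzymes highest above the mean there were *Idh3g*, *Fh1* (fumarase), *Idh3b* and *Mdh2*, and those lowest below it were *Me1*, *Hibadh*, *Dld* and *Dbt*. Across the 36 members, the deviation in this library correlated with the GC content of the transcript (Pearson's r = 0.48, across genes that share the library). Over 12706 genes with a known transcript the same r was 0.37. Other libraries showed such a relation of the opposite sign, with r = -0.53 over the members in TK-/- tagged replicate 4 (-0.21 over all genes) and -0.37 in control-tagged replicate 2 (-0.13 over all genes). The part of base composition in the values was not tested.

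**Figure D2:**
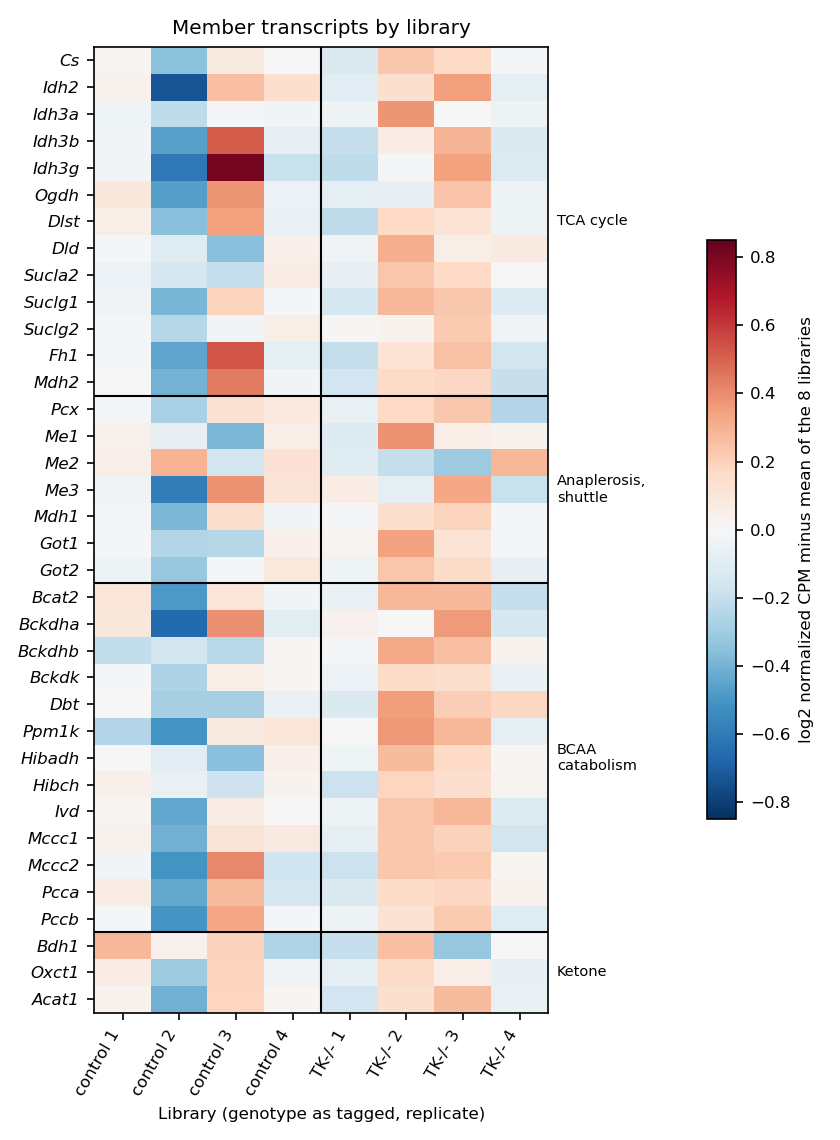
Log2 normalized CPM of each member minus its mean over the 8 libraries (colour), with members in rows by functional group and libraries in columns. Control-tagged replicate 2 is blue in nearly all rows, with the lowest value in 28 of 36, and control-tagged replicate 3 spans -0.38 to 0.81.

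The spread within groups exceeded the difference between them for most members. The SD within groups had a median of 0.22 on the log2 scale over the members, beside 0.21 over all genes. It was 0.17 over the 8815 genes at or above the level of the least abundant member. The difference between group means was smaller than a member's own SD in 29 of 36 members. It was larger in 7 members (19.4%), beside 28.2% of all genes and 29.2% of those 8815. The steadiest members were *Suclg2* (SD 0.12), *Sucla2* (0.13) and *Bckdk* (0.13), and the widest spread was that of *Idh3g* (0.45).

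Levels differed between and within the functional groups. Per kb of exon, the most abundant member was *Idh2*, the NADP-dependent mitochondrial isocitrate dehydrogenase, at 1048 CPM per kb, followed by *Mdh1*, the cytosolic malate dehydrogenase of the shuttle, at 974. The TCA cycle enzymes ran down to 39.6 for *Suclg2*. BCAA catabolism was lower, from 196 for *Bckdha*, the E1 alpha subunit of BCKDH, to 10.2 for *Ppm1k*. Of the ketone enzymes, *Oxct1* lay at 477, *Acat1* at 149 and *Bdh1* at 88.1. Of the malic enzymes, the cytosolic *Me1* lay at 33.0 CPM per kb. The mitochondrial *Me3* and *Me2* had the lowest values per kb of exon, 7.84 and 1.41, *Me2* with 99 to 172 counts per library. The order of members depended on the length used. Per kb of transcript, *Mdh2* (1402) lay above *Mdh1* (1178), and *Me3* (25.6) above *Dbt* (14.1) and *Pcx* (12.3). *Idh2* (1555) and *Me2* (3.88) remained the highest and the lowest member by that measure.

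Of the 13 TCA cycle enzymes, 7 had a log2 fold change above 0 and 6 below, with a median of 0.11. Without control-tagged replicate 2, 6 lay above 0, without control-tagged replicate 3 all 13 did, and with both replicates numbered 2 left out 3 did. *Idh2* (ENSMUSG00000030541, chromosome 7, 80094846 to 80115392 of GRCm38) lay at 2729, 1596, 3169 and 2934 normalized CPM in control-tagged replicates 1 to 4. In TK-/- tagged replicates 1 to 4 it lay at 2480.4, 2917, 3375 and 2505. The lowest value was that of control-tagged replicate 2 and the groups overlapped over most of their range. The log2 fold change of *Idh2* was 0.11 (SE 0.20, FDR = 0.898), and it was -0.06 without control-tagged replicate 2.

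*Dld* (ENSMUSG00000020664, chromosome 12, 31331277 to 31351453) encodes the lipoamide dehydrogenase shared by the oxoglutarate, pyruvate and branched-chain ketoacid dehydrogenase complexes. It lay at 369.7, 346, 291 and 383 normalized CPM in the control-tagged and at 364, 461, 386 and 392 in the TK-/- tagged replicates 1 to 4. TK-/- tagged replicate 2 was high, control-tagged replicate 3 was low, and the other 6 libraries lay between 346 and 392. The means were 347 ± 40.8 and 401 ± 41.7 (SD, n = 4 each), with a log2 fold change of 0.21 (SE 0.12, FDR = 0.630), the largest of the TCA cycle enzymes.

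Succinyl-CoA synthetase pairs the alpha subunit *Suclg1* with either of its beta subunits, *Sucla2*, which forms ATP, or *Suclg2*, which forms GTP. *Sucla2* (ENSMUSG00000022110, chromosome 14, 73525319 to 73596142) lay at 513, 478, 461 and 553 in the control-tagged and at 506, 624, 596 and 529 normalized CPM in the TK-/- tagged replicates. *Suclg2* (ENSMUSG00000061838, chromosome 6, 95473009 to 95718800) lay at 181, 154, 179 and 189 in the control-tagged and at 184, 187, 213 and 179 in the TK-/- tagged replicates. Both were higher in TK-/- tagged replicate 3 than in any control-tagged library. Their log2 fold changes were 0.17 (SE 0.11, FDR = 0.680) and 0.11 (SE 0.10, FDR = 0.759). The log2 ratio of *Sucla2* to *Suclg2* was 1.51 ± 0.11 in the control-tagged and 1.56 ± 0.13 in the TK-/- tagged libraries (SD, n = 4 each). This difference of 0.05 did not exceed the spread (2-sided exact permutation test, p = 0.543).

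The promoters of *Dld* and *Sucla2* are shown because these genes had the largest differences of the TCA cycle enzymes and because both hold a match to the site of NRF-1, a factor known for nuclear genes of mitochondrial enzymes. The windows are the 300 bases around the start of the gene in RefSeq on GRCm38.p6, and capitals mark the match to the letters GCGC, A, any base and GCGC on either strand. *Dld* lies on the minus strand at chr12:31351422-31351721, with the match at bases 39 to 48 after the start. *Sucla2* lies on the plus strand at chr14:73552536-73552835, with the match 17 to 8 bases before the start. This window lies inside the gene interval given above, which starts at 73525319, so the RefSeq and GENCODE starts of *Sucla2* differ.
Dld: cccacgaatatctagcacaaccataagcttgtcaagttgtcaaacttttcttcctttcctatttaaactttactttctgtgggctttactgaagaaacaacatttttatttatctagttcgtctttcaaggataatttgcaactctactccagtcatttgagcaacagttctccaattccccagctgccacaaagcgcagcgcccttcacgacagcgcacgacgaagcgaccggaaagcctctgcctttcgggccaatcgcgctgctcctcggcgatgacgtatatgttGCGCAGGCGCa
Sucla2: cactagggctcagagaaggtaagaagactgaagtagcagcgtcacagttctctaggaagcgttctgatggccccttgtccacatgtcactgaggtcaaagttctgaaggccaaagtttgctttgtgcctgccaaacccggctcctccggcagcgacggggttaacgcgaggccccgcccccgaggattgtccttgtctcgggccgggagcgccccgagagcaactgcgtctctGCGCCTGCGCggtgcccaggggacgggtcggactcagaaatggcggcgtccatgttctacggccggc
Of the 36 members, 32 had a window, in all 43 windows. The NRF-1 letters, searched on both strands, stood in 4 of 43 member windows (9.30%), those of *Dld*, *Hibadh*, *Pccb* and *Sucla2*, beside 4.60% of 32851 windows. This motif was chosen after the values were seen. The letters TNAAGGTCA of the estrogen-related receptor site, searched on both strands, stood in 0 of 43 member windows, beside 1.28% of all windows. A match or its absence describes these letters in this window and says nothing of the factor.

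The remaining TCA cycle members were described from their means. *Cs* (citrate synthase) lay at 1489.9 ± 186 and 1625 ± 179.9 normalized CPM (SD, n = 4 each), with a log2 fold change of 0.13. *Suclg1* had a log2 fold change of 0.12 and *Idh3a* of 0.16. *Ogdh* and *Dlst*, which form the oxoglutarate dehydrogenase complex with *Dld*, had log2 fold changes of -0.00 each. *Fh1*, *Mdh2*, *Idh3b* and *Idh3g* lay between -0.08 and -0.01. Control-tagged replicate 3 held the highest value of these last 4 enzymes, and without it all 4 lay above 0.

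Transcripts of subunits of one enzyme did not keep a fixed ratio across libraries. These pairs were chosen after their values were seen. For the NAD-dependent isocitrate dehydrogenase, the log2 ratio of *Idh3g* to *Idh3a* was 0.24, -0.16, 1.07 and 0.07 in control-tagged replicates 1 to 4. In the TK-/- tagged replicates it was 0.06, -0.15, 0.57 and 0.16. Control-tagged replicate 3 stood highest in 4 of the 5 ratios plotted, and for *Idh3g* to *Idh3a* the range over libraries was 0.73 without it in place of 1.22. The ratio of *Idh3b* to *Idh3a* ranged from 0.24 in TK-/- tagged replicate 2 to 1.08 in control-tagged replicate 3, a range of 0.84, or 0.59 without that library. The ratio of *Dlst* to *Dld* ranged from 1.03 to 1.98, and its range of 0.95 was 0.32 without control-tagged replicate 3. *Bckdha* to *Bckdhb*, the alpha and beta subunits of the E1 component of BCKDH, ranged from 2.47 in control-tagged replicate 2 to 3.60 in control-tagged replicate 3, a range of 1.13, or 0.81 without that library. The ratio of *Pcca* to *Pccb*, the subunits of propionyl-CoA carboxylase, lay between -0.60 and -0.34, a range of 0.26 with or without it.

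**Figure D3:**
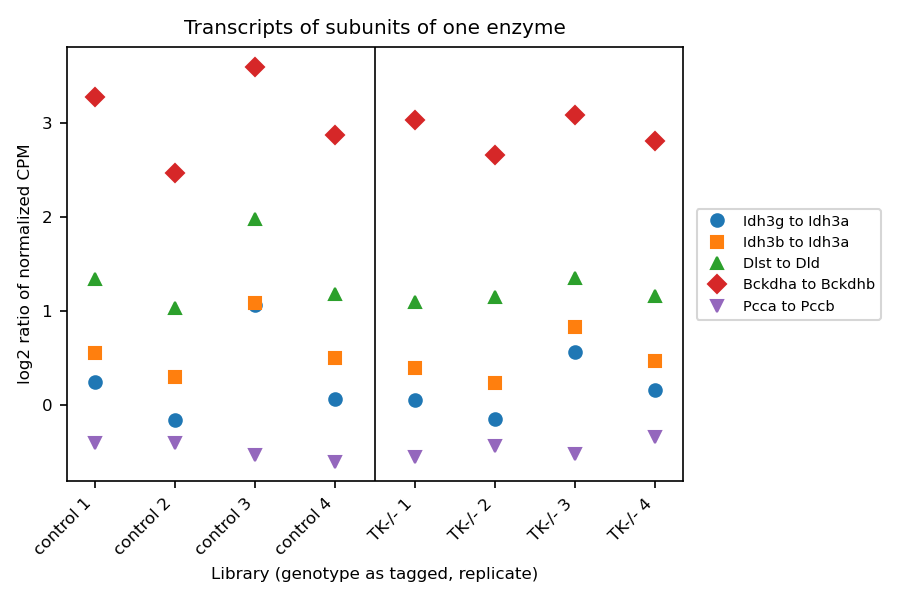
Log2 ratio of normalized CPM for 5 pairs of subunits (y axis) in each library (x axis, control-tagged left and TK-/- tagged right of the line). *Idh3g* to *Idh3a* spans -0.16 to 1.07 with its highest value in control-tagged replicate 3, while *Pcca* to *Pccb* stays between -0.60 and -0.34.

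Of the 7 enzymes of anaplerosis, malic enzymes and the malate-aspartate shuttle, 6 had a log2 fold change above 0 and 1 below, with a median of 0.13. Without control-tagged replicate 2, 4 of 7 lay above 0. *Mdh1* (ENSMUSG00000020321, chromosome 11, 21556787 to 21572367) lay at 2457, 1901, 2727 and 2446 normalized CPM in the control-tagged and at 2450.1, 2726, 2836 and 2450.3 in the TK-/- tagged replicates. Control-tagged replicate 2 stood apart below the other 7 libraries, which lay between 2446 and 2836. Its log2 fold change was 0.13 (SE 0.14, FDR = 0.806).

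*Got1* (ENSMUSG00000025190, chromosome 19, 43499752 to 43524605), the cytosolic aspartate aminotransferase, lay at 985, 840.3, 842 and 1028 in the control-tagged replicates. It lay at 1013, 1263, 1083 and 989.7 normalized CPM in the TK-/- tagged replicates. Control-tagged replicate 4 lay within the range of the TK-/- tagged libraries and the other 3 below it. The means were 924 ± 97.1 and 1087 ± 124 (SD, n = 4 each), a log2 fold change of 0.23 (SE 0.13, FDR = 0.612). Its mitochondrial partner *Got2* had a log2 fold change of 0.14. *Got2* has 1 named pseudogene in the annotation, to which reads of the gene could have been assigned.

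Pyruvate carboxylase, *Pcx*, which makes oxaloacetate from pyruvate, lay at 50.1 ± 5.94 and 51.8 ± 7.79 normalized CPM (SD, n = 4 each). The malic enzymes differed in sign. *Me1* had a log2 fold change of 0.18 (SE 0.13), *Me3* of 0.03 (SE 0.18) and *Me2* of -0.16 (SE 0.16), with FDRs of 0.707, 0.971 and 0.801. *Me2* was the 1 member highest in control-tagged replicate 2, where it lay at 12.5 normalized CPM, and it lay lowest in TK-/- tagged replicate 3, at 8.14.

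All 13 genes of BCAA catabolism had a log2 fold change above 0, from 0.07 for *Pccb* to 0.32 for *Dbt*, with a median of 0.11. None was called. Without control-tagged replicate 2, 8 of 13 lay above 0, and with both replicates numbered 2 left out 7 of 13, with a median of 0.00. Without TK-/- tagged replicate 2, all 13 stayed above 0 and the median was 0.08.

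The members with the largest differences belonged to the BCKDH complex. *Dbt* (ENSMUSG00000000340, chromosome 3, 116513070 to 116549981), the E2 core of the complex, lay at 46.0, 37.8, 37.9 and 44.3 normalized CPM in the control-tagged replicates. In the TK-/- tagged replicates it lay at 42.3, 58.9, 53.3 and 52.0. Replicates 2 to 4 of the TK-/- tagged group lay above all control-tagged libraries, and replicate 1 among them. The means were 41.5 ± 4.26 and 51.6 ± 6.90 (SD, n = 4 each), with a log2 fold change of 0.32 (SE 0.12) and an FDR of 0.492. A 2-sided exact permutation test over the libraries gave p = 0.0857.

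*Bckdhb* (ENSMUSG00000032263, chromosome 9, 83925145 to 84124240), the E1 beta subunit, lay at 39.9, 41.4, 39.2 and 46.5 in the control-tagged and at 45.5, 57.6, 55.1 and 47.1 normalized CPM in the TK-/- tagged replicates. Control-tagged replicate 4 lay above TK-/- tagged replicate 1, and this was the single overlap. The means were 41.7 ± 3.28 and 51.3 ± 5.92 (SD, n = 4 each), with a log2 fold change of 0.30 (SE 0.10, FDR = 0.475) and p = 0.0571 in the exact permutation test. Without TK-/- tagged replicate 2, neither *Bckdhb* nor *Dbt* kept an unadjusted p under 0.05. The sign of their log2 fold changes stayed positive with any library left out, from 0.24 to 0.35 for *Bckdhb* and from 0.24 to 0.40 for *Dbt*.

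*Bckdha* (ENSMUSG00000060376, chromosome 7, 25629946 to 25658981), the alpha partner of *Bckdhb* in E1, was several times as abundant and varied more. It lay at 389, 230.4, 477 and 342 in the control-tagged and at 374, 365, 469 and 332 normalized CPM in the TK-/- tagged replicates. The control-tagged group held both the lowest and the highest value. Its log2 fold change was 0.10 (SE 0.19, FDR = 0.908) and turned to -0.06 without control-tagged replicate 2 and -0.01 without TK-/- tagged replicate 3. Of its 1899 exon bases, 1171 are shared with *B3gnt8* on the opposite strand, which was counted at 26 to 76 per library.

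The kinase and the phosphatase of the complex both showed overlapping groups. *Bckdk* (ENSMUSG00000030802, chromosome 7, 127904082 to 127910221) lay at 110.2, 92.8, 115 and 112 in the control-tagged and at 107, 125, 123 and 107 normalized CPM in the TK-/- tagged replicates. *Ppm1k* (ENSMUSG00000037826, chromosome 6, 57506502 to 57535468) lay at 50.8, 42.3, 63.6 and 64.8 in the control-tagged and at 60.4, 77.9, 73.5 and 57.2 in the TK-/- tagged replicates. Both were lowest in control-tagged replicate 2 and highest in TK-/- tagged replicate 2. The log2 fold changes were 0.10 (SE 0.10, FDR = 0.785) for *Bckdk* and 0.28 (SE 0.15, FDR = 0.612) for *Ppm1k*. The log2 ratio of *Bckdk* to *Ppm1k* was 0.97 ± 0.18 in the control-tagged and 0.79 ± 0.10 in the TK-/- tagged libraries (SD, n = 4 each). The difference of -0.18 had p = 0.171 in the 2-sided exact permutation test and an adjusted p of 0.514 over the 3 ratios compared.

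**Figure D4:**
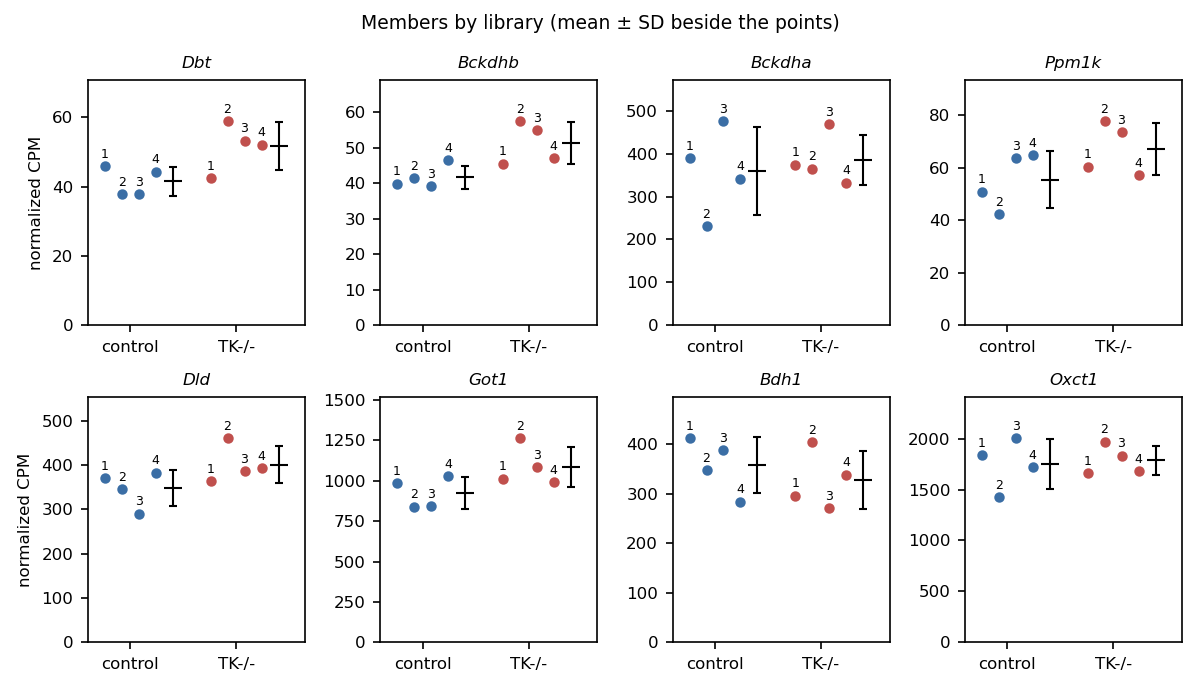
Normalized CPM (y axis, from 0) of 8 members in the control-tagged (blue) and TK-/- tagged (red) libraries, with the replicate number at each point and the mean with SD beside the points. The groups overlap in every panel, by the single library TK-/- tagged replicate 1 in *Dbt* and *Bckdhb*.

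The enzymes around BCKDH had smaller differences than *Dbt*, *Bckdhb* and *Ppm1k*. Those of *Hibadh*, *Ivd*, *Bcat2* and *Mccc2* were larger than those of *Bckdha* and *Bckdk*. *Bcat2*, the mitochondrial transaminase upstream, had a log2 fold change of 0.15 (SE 0.15). Downstream, *Hibadh* and *Hibch* of the valine branch had 0.21 and 0.09. In the leucine branch, *Ivd* had 0.17, and *Mccc1* and *Mccc2*, the subunits of methylcrotonyl-CoA carboxylase, had 0.09 and 0.11. *Pcca* and *Pccb*, which take the propionyl-CoA of valine and isoleucine, had 0.10 and 0.07. The FDR of these 8 genes lay between 0.621 for *Hibadh* and 0.915 for *Pccb*. Control-tagged replicate 2 was the lowest library in *Bcat2*, *Ivd*, *Mccc1*, *Mccc2*, *Pcca* and *Pccb*.

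The 3 enzymes of ketone body use had log2 fold changes on both sides of 0. *Bdh1* (ENSMUSG00000046598, chromosome 16, 31422280 to 31458901), which oxidizes beta-hydroxybutyrate to acetoacetate, lay at 412, 348, 387 and 283 normalized CPM in the control-tagged replicates. It lay at 296, 404, 271 and 338 in the TK-/- tagged replicates. The groups were interleaved, and the log2 fold change was -0.13 (SE 0.15, FDR = 0.835). *Bdh1* shares 533 of its exon bases with *Gm15743* on the opposite strand, counted at 33 to 61 per library.

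*Oxct1* (ENSMUSG00000022186, chromosome 15, 4026383 to 4155344), which transfers CoA to acetoacetate, lay at 1839.9, 1426, 2004 and 1721 in the control-tagged and at 1661, 1969.7, 1831 and 1678 normalized CPM in the TK-/- tagged replicates. The TK-/- tagged libraries lay inside the range of the control-tagged libraries. *Oxct1* had a log2 fold change of 0.03 (SE 0.14, FDR = 0.964), and *Acat1*, which splits acetoacetyl-CoA and also serves isoleucine catabolism, had 0.09 (SE 0.14, FDR = 0.890). The log2 ratio of *Bdh1* to *Oxct1* was -2.29 ± 0.25 in the control-tagged and -2.46 ± 0.22 in the TK-/- tagged libraries (SD, n = 4 each), a difference of -0.17 (2-sided exact permutation test, p = 0.343, adjusted p = 0.514).

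Sums of cell type markers also stood apart in the library without which the members lay evenly around 0. The summed normalized CPM of 7 cardiomyocyte markers was lowest in control-tagged replicate 2, at 61042, and lay between 78492 and 98454 in the other 7 libraries. The sums of 6 fibroblast, 5 endothelial and 5 leukocyte markers were highest in the same library, at 1548, 1328 and 373, although control-tagged replicate 3 had an endothelial sum of 1306. *Pecam1*, *Cdh5* and *Adgre1* were highest in control-tagged replicate 3, and *Tek* and *Egfl7* in control-tagged replicate 4. *Lum* and *Pdgfra* were highest in TK-/- tagged replicate 4 and *Ptprc* in TK-/- tagged replicate 1. The cardiomyocyte marker *Ryr2* was lowest in control-tagged replicate 1. The other markers of these lists went with the sums of control-tagged replicate 2. TK-/- tagged replicate 3, in which 34 members lay above their mean, had the highest cardiomyocyte sum, 98454. It had the lowest fibroblast, endothelial and leukocyte sums, 567, 986 and 182, although TK-/- tagged replicate 2 had an endothelial sum of 998. *Actc1* and *Myl3* were highest in control-tagged replicate 3 and *Ryr2* in TK-/- tagged replicate 2. *Pecam1*, *Cdh5*, *Tek*, *Ptprc* and *Itgam* were lowest in TK-/- tagged replicate 2 and *Egfl7* in TK-/- tagged replicate 4. Between the groups, 5 of 7 cardiomyocyte markers had a log2 fold change above 0 (median 0.16). The same held for 0 of 6 fibroblast, 1 of 5 endothelial and 0 of 5 leukocyte markers, with medians of -0.19, -0.25 and -0.33, and none of these markers was called. At an unadjusted p under 0.05 there were 1 cardiomyocyte, 2 endothelial and 1 leukocyte marker. The part of these cell types in the values of the members was not tested, and in bulk tissue fewer cells of a type and less RNA per cell cannot be told apart.

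Other genes of the same pathways were read from a list of 41, of which 40 were tested. None was called by the quasi-likelihood test, the likelihood ratio test or DESeq2. The log2 fold change was above 0 in 32 and below 0 in 8, with a median of 0.10. Without control-tagged replicate 2, 25 of 40 lay above 0, and with both replicates numbered 2 left out 19 did. At an unadjusted p under 0.05 there were 4 genes (10.0%, beside 8.96% of all genes), *Pdk4*, *Mpc2*, *Pdp2* and *Auh*, and without TK-/- tagged replicate 2 there were 0. The groups did not overlap in 2 of 40, *Mpc2* and *Slc25a44*, both higher in the TK-/- tagged libraries, which is near the 4.98% of all genes without overlap.

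Pyruvate enters the mitochondrion through the carrier formed by *Mpc1* and *Mpc2*, and the kinases *Pdk1* to *Pdk4* switch pyruvate dehydrogenase off. *Pdk4* (ENSMUSG00000019577, chromosome 6, 5483351 to 5496309) lay at 589, 615, 694 and 444 in the control-tagged and at 607, 1579, 691 and 699.5 normalized CPM in the TK-/- tagged replicates. Its log2 fold change of 0.61 (SE 0.28, FDR = 0.554) became 0.18 without TK-/- tagged replicate 2. *Mpc2* (ENSMUSG00000026568, chromosome 1, 165460637 to 165481214) lay at 239, 236, 156 and 248 in the control-tagged and at 265, 349, 275 and 252 in the TK-/- tagged replicates. The groups touched without overlap, with control-tagged replicate 3 low and TK-/- tagged replicate 2 high, and the log2 fold change was 0.38 (SE 0.16, FDR = 0.522).

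The other 3 genes were less abundant. *Pdp2*, a phosphatase that switches pyruvate dehydrogenase on, lay between 6.00 and 8.53 in the control-tagged and between 8.05 and 12.4 normalized CPM in the TK-/- tagged libraries, with a log2 fold change of 0.40 (SE 0.17, FDR = 0.522). *Auh*, the hydratase of the leucine branch, lay between 70.8 and 83.0 and between 81.4 and 102, with 0.22 (SE 0.10, FDR = 0.538). *Slc25a44*, the mitochondrial carrier of BCAAs, lay between 19.0 and 23.3 in the control-tagged and between 23.7 and 26.0 in the TK-/- tagged libraries, with 0.16 (SE 0.10, FDR = 0.645). Of these, only the groups of *Slc25a44* were free of overlap.

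**Figure D5:**
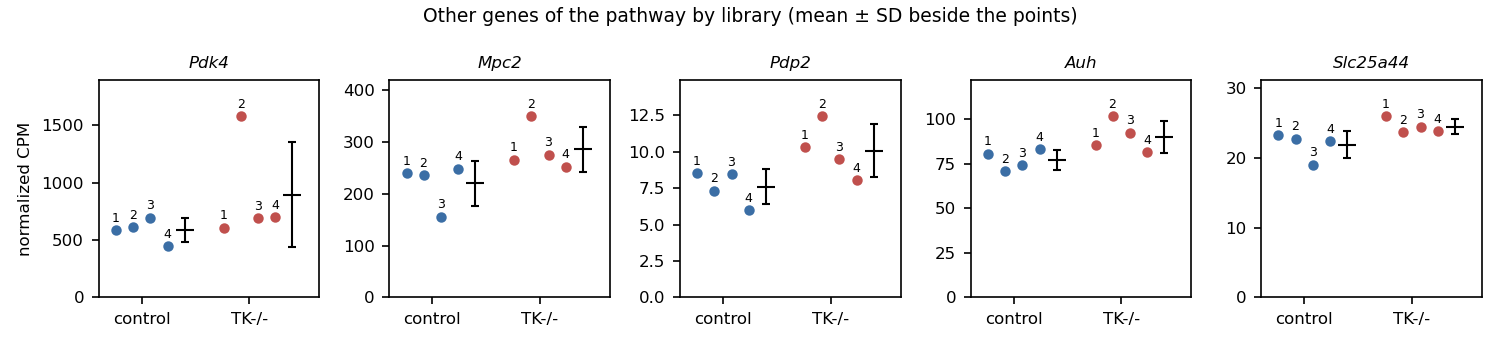
Normalized CPM (y axis, from 0) of the 5 named pathway genes outside the list of members in the control-tagged (blue) and TK-/- tagged (red) libraries, with the replicate number at each point and the mean with SD beside the points. TK-/- tagged replicate 2 stands alone at 1579 in *Pdk4*.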

How the data were processed

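LV RNA of 8 mice was sequenced, 4 per genotype tag. Reads were trimmed with Trim Galore 0.4.4, aligned to GRCm38 with STAR 2.5.4b and assigned by featureCounts to genes of GENCODE M16. The authors deposited the resulting raw counts, which are not normalized, as 1 table. Whether strand or reads with several alignments were counted is not given in the sources used here, so that a gene may share reads with an antisense or paralogous gene. The labels describe depletion of ribosomal RNA and the study's methods poly-A selection.

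Libraries were grouped by genotype tag and library name, which the titles contradict, and each library was 1 replicate. Genes had to reach a CPM of 1 in 2 or more libraries. Counts were normalized with TMM factors (0.917 to 1.12) and tested with the quasi-likelihood test of edgeR 4.0.16 in R 4.3.3, with no covariates and Benjamini-Hochberg adjustment over 13542 genes. A call needed an FDR under 0.1 together with a change of at least 1.5-fold. Normalized CPM uses TMM-adjusted library sizes, and its log2 a prior count of 2. Ratios of members and single genes were compared with an exact 2-sided permutation test in SciPy 1.17.1, whose smallest p is 0.0286. Scripts were tested on simulated data.

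The likelihood ratio test, which the study used, DESeq2 1.42.0, robust dispersions, RLE factors, total counts, no filter, filterByExpr, other thresholds, each library left out and a replicate block were alternatives. Leaving out both replicates numbered 2 was added after the values were seen. The members and lists were chosen with earlier results of these data known. Values per library are given for members with an unadjusted p under 0.05 or groups without overlap, with the largest absolute log2 fold change or the highest level per kb in their functional group, or in a ratio, and for other pathway genes with such a p or without overlap. Same-numbered libraries had correlations of deviations of -0.03, 0.03, 0.34 and -0.06 and were not treated as pairs. Counting error weighs most in *Me2*, the member with the lowest counts (99 to 172), and less in the others. It was not estimated for single members. Coordinates and symbols follow GENCODE of GRCm38. The values of some genes of the lists are not reported here.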

Additional observations from a re-analysis of the deposited data

Results flagged for a closer look

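In 82 groups of 4 libraries (36 members and the 5 named other genes, in each genotype), 7 held a library whose gap to its nearest neighbour took up more of the group's range than Dixon's 95% critical value for 4 samples allows. Chance flags about 1 group in 20. Control-tagged replicate 2 stood below the other control-tagged libraries in *Idh3a* (gap of 0.927 of the range), *Ivd* (0.862) and *Mccc1* (0.846). TK-/- tagged replicate 2 stood above its group in *Idh3a* (0.892) and *Pdk4* (0.905). TK-/- tagged replicate 3 stood above its group in *Ogdh* (0.903). Control-tagged replicate 3 stood below its group in *Mpc2* (0.866).

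For *Idh3a*, the control-tagged values were 600.2, 529, 606 and 604 and the TK-/- tagged values 597, 795, 617 and 595 normalized CPM, so that 6 of 8 libraries lay between 595 and 617. For *Ogdh*, the TK-/- tagged values were 3062, 3075, 3819 and 3135 normalized CPM.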

How the results depend on the processing

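No member was called under any of 17 alternatives, in which the lowest FDR of a member was 0.327. The sign of the log2 fold change was that of the main fit in 557 of 612 comparisons of members and alternatives, and 16 members kept it in all 17. Over all genes, the likelihood ratio test called 53, DESeq2 32, the fit without a filter on low counts 23 and the fit without both replicates numbered 2 called 2, beside 1. No other pathway gene was called under any of them. With total counts, 2 members had groups without overlap and 2 other pathway genes had an unadjusted p under 0.05. The shares of all genes were not determined under total counts. With both replicates numbered 2 left out, 0 members and 0 other pathway genes had such a p, 14 members lay above 0, and the log2 fold changes of *Bckdha*, *Idh2* and *Oxct1* turned to -0.040, -0.079 and -0.11.

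With each library left out in turn, 1 to 3 genes were called over all genes, 0 to 3 members had an unadjusted p under 0.05, 0 to 3 had groups without overlap, and 18 to 34 lay above 0. The median log2 fold change of the members ranged from 0.01 to 0.17, and 0 to 7 other pathway genes had an unadjusted p under 0.05. *Bckdha* ranged from -0.065 to 0.26, *Idh2* from -0.062 to 0.22, *Oxct1* from -0.056 to 0.10 and the log2 ratio of *Sucla2* to *Suclg2* from -0.0063 to 0.093. The count of 18 and the lowest values of *Bckdha*, *Idh2* and *Oxct1* came without control-tagged replicate 2. The fewest members and other genes at such a p (0 and 0) came without TK-/- tagged replicate 2, and the most other genes (7) and members without overlap (3) without TK-/- tagged replicate 1. The cause was not tested. The shares of all genes at such a p or without overlap were not determined for these fits, so these counts have no background. The 4.98% of all genes without overlap in the main fit does not apply, because smaller groups separate more often by chance.

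With the replicate block, 0 members were called, 2 had an unadjusted p under 0.05, 33 lay above 0 with a median of 0.12, and 1 gene was called over all genes. The block changed no call. Of 8 libraries, 2 correlated best with their own number. The SEs of the members lay between 0.10 and 0.25 on the log2 scale. The smallest difference detectable with 4 libraries a group was not determined. *Dbt*, with the largest log2 fold change of the members, 0.32 (SE 0.12), had an FDR of 0.492 in the main fit.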

Other observations

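Among the pathway genes outside the list of members, succinate dehydrogenase and the pyruvate dehydrogenase complex were also not called. The succinate dehydrogenase subunits *Sdha*, *Sdhb*, *Sdhc* and *Sdhd* had log2 fold changes of 0.02, 0.06, 0.19 and 0.01, with FDRs from 0.657 to 0.990. *Pdha1*, *Pdhb* and *Dlat* of the pyruvate dehydrogenase complex had 0.10, 0.06 and 0.18. *Slc16a1*, the plasma membrane carrier of lactate and ketone bodies, had -0.03 (SE 0.11). *Slc25a1*, the citrate carrier, had the lowest log2 fold change of the list, -0.33 (SE 0.15, FDR = 0.559). These genes were chosen after their values were seen.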
